A study of Mus musculus with 6 samples.

Results

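The Prdm6 locus, XLOC_016830 in the deposited assembly, and the loci around it were followed from undifferentiated mouse embryonic stem (ES) cells to embryoid bodies, which are clumps of differentiating cells grown in hanging drops. The set is the Prdm6 locus with every locus of the count table whose span overlaps chromosome 18 from 53.2 to 54.2 Mb on the mm9 genome. It holds 8 of the 18420 loci of the table, which are the Prdm6 locus and 7 neighbours. The Prdm6 locus was chosen by its counts in these libraries, which rose very far between the stages, so its own rise is given as a description, with no test. The neighbours were taken by position alone and were tested. All samples came from the Nkx2.5-EmGFP BAC reporter ES line, in which a bacterial artificial chromosome reports on Nkx2.5, an early cardiac transcription factor gene. The day 0 group was undifferentiated cells, for which the medium held LIF, and the day 6 group was embryoid bodies 6 days after cardiac differentiation had been induced, with 3 libraries per group. The labels give the strain as C57BL/6J, whereas the growth protocol names another strain. According to that protocol the ES cells grew on fibroblast feeders or on gelatin, and which library had feeders is not stated.

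The files number loci without naming genes. A locus was given a gene symbol where at least 1 of its transcript models had the same series of exon and intron lengths as a transcript of a single gene on the same chromosome and strand in GENCODE M21, an annotation of another build (GRCm38). That match uses lengths only and no position. XLOC_016830 matched Prdm6, and 5 neighbours matched Snx2, Snx24, Ppic, Cep120 and Csnk1g3. A sixth neighbour, XLOC_016831, matched a noncoding gene that GENCODE names only by a clone identifier, and it keeps its locus number here. In the RefSeq gene table (GRCm38.p6) the coding genes of this stretch stand in the order Snx2, Snx24, Ppic, Prdm6, Cep120 and Csnk1g3, the same order as the loci. Of all loci with counts, 12519 (68%) were paired with 1 symbol, and 99.2% of these kept the order of the reference along their chromosome.

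PRDM proteins share a PR domain, which is related to the SET domain of histone methyltransferases, and most carry zinc fingers that bind DNA. Prdm6 acts in the nucleus as a repressor of transcription and is known from vascular smooth muscle, where it has been tied to the balance between proliferation and differentiation, and from the wall of the ductus arteriosus. Its neighbours have unrelated roles: Snx2 and Snx24 encode sorting nexins, which bind endosomal membranes, Ppic encodes a cyclophilin, Cep120 a protein of the centriole, and Csnk1g3 a casein kinase.

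The libraries were deep and of like size, at 106306699 to 114092201 counted reads each. The stages showed their markers, with exceptions. Each list below is read beside the share over all tested loci, of which 22.2% rose and 21.8% fell. Of 5 paired ES cell markers 4 fell and 0 rose by day 6, with a median log2 change of -1.89, while the median over all tested loci was 0.02. Of 5 cardiac markers 4 rose and 1, Myl7, fell, where the call of Actc1 was lost in 8 of 17 alternatives and its stages overlapped. Summed over these 5, the normalized counts were 530 to 873 at day 0 and 1130 to 1765 at day 6. Of 5 endothelial and blood markers 3 rose and 1, Pecam1, fell. Their summed normalized counts were 10851 to 17959 at day 0 and 34399 to 65910 at day 6. The summed normalized counts of the 7 feeder fibroblast markers ranged from 52631 to 223756 at day 0 and from 108097 to 149475 at day 6, with 1 marker higher (3 without day 0 replicate 3), 3 lower and 3 not past the threshold. No feeder marker was at 0 in any library. Pou5f1, Sox2, Dppa5a and Myh6 were not paired. The part that feeder RNA had in the values below was not tested, and in these bulk samples fewer cells of a type and less RNA per cell cannot be told apart.

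On the plus strand of chromosome 18 (mm9) the Prdm6 locus runs from 53614380 to 53761257, 146878 bp in all, and most of its assembled sequence lies outside annotated exons. It has 11 transcript models from 8 start groups. Of these, 2 match annotated transcripts (class code =), 5 share a splice junction with one (class code j) and 4 are unannotated (class code u). The longer annotated transcript runs from 53624200 to 53735511 in 7 exons with 2601 exonic bases. The shorter one has 4 exons, starts at 53711248 and ends at the same base. Together the models cover 37839 exonic bases, of which 2652 (7.01%) are in annotated exons.

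The added sequence was at both ends. Upstream of the annotated start lie 9641 exonic bases (25.5%), nearly all in a first exon of 9323 bases that is joined to the next exon by an intron of 504 bp. That intron is not in either annotated transcript of the file, but an intron of the same length occurs in Prdm6 in GENCODE M21. Downstream of the annotated end lie 25330 bases (66.9%). The annotated last exon has 903 bases, whereas 3 assembled models end in an exon of 14180 bases that begins at the same junction. A further 2 models run on by splicing to 53761110. The 4 unannotated models lie between 53748891 and 53761257, where they overlap the end of these 2 models or of each other. Of the 14 introns of the locus 7 are annotated in the file and 8 have the length of a Prdm6 intron in GENCODE M21. One exon of 176 bases, between the last annotated exon and the one before it, is held by 2 of the models and is in neither annotated transcript.

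**Figure D1:**
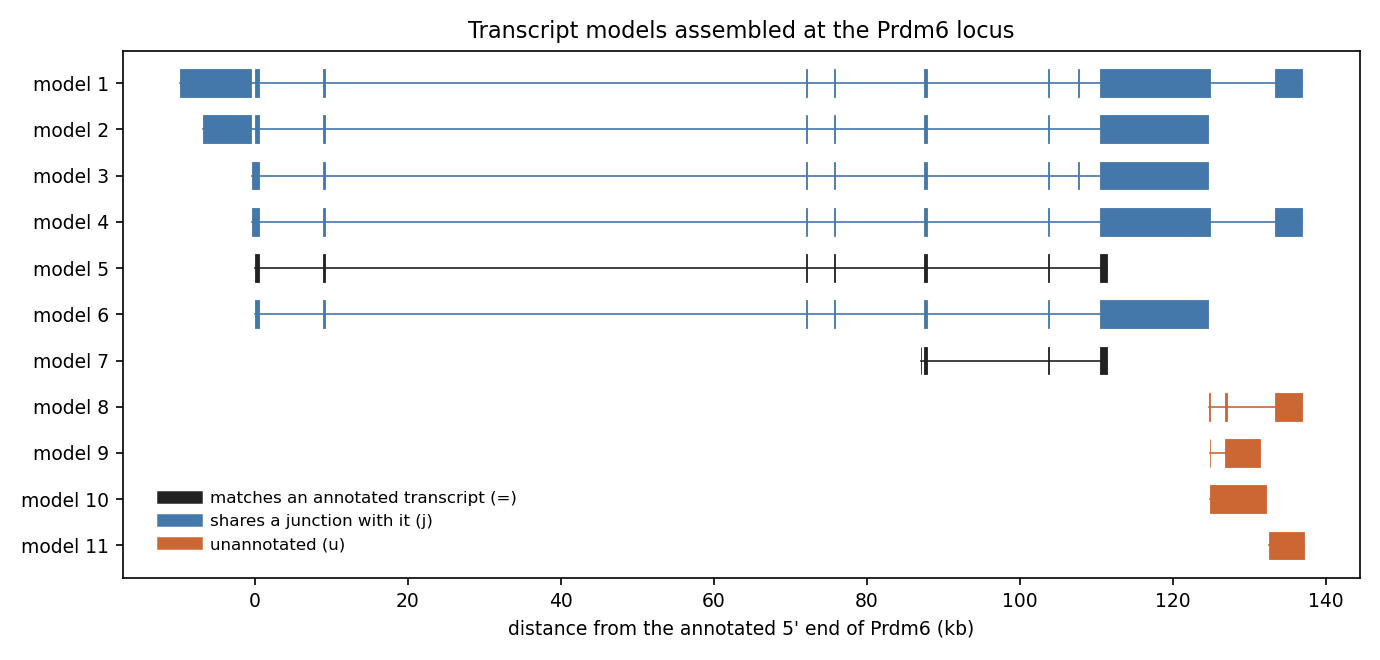
The 11 transcript models of the Prdm6 locus, drawn to scale by distance in kb from the annotated start, with boxes for exons and lines for introns. The 2 annotated models (black) hold 7.01% of the locus's exonic bases, and the long first and last exons belong to models that share a junction with them (blue) or are unannotated (orange).

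This structure was unusual among coding loci. Among 14321 annotated coding loci of the table the median share of exonic bases outside annotated exons was 12.5%, and 212 loci (1.48%) had a higher share than the 93% of the Prdm6 locus. A larger exonic length was found for 2.91% of coding loci, whose median was 7101 bases. Counts are given once per locus, so how the reads divided between the annotated exons, the first exon and the downstream exons was not analysed here.

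In undifferentiated cells the Prdm6 locus was close to silent. It had 19.2, 18.6 and 15 normalized counts in day 0 replicates 1, 2 and 3, or 55 reads in all. In embryoid bodies it had 21974, 19890 and 16916, or 57280 reads. The 3 libraries of a stage lay close together, with an SD of 0.19 on the log2 scale at each stage, and every day 6 value was far above every day 0 value. The ratio of reads was 1111 after scaling by the summed size factors of each stage, which are the divisors behind the normalized counts. The log2 change was 10.04, and leaving out each library in turn gave 9.93 to 10.14.

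Per exonic kilobase the level depends on which bases the reads are divided by. Over all 37839 exonic bases its day 0 level was 0.465 ± 0.0609 normalized counts per kb and its day 6 level 518 ± 67.2 (SD over 3 libraries). If all reads fell in the 2652 annotated bases, the day 6 level would be 7388 per kb. Over all exonic bases it ranked 18265 of 18420 loci at day 0 and 5204 at day 6, where the median coding locus had 189 per kb. By total count, which is not corrected for length, it ranked 16132 at day 0 and 1417 at day 6. At day 6 it held 0.0171% ± 0.00198 of all counts (SD, n = 3).

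**Figure D2:**
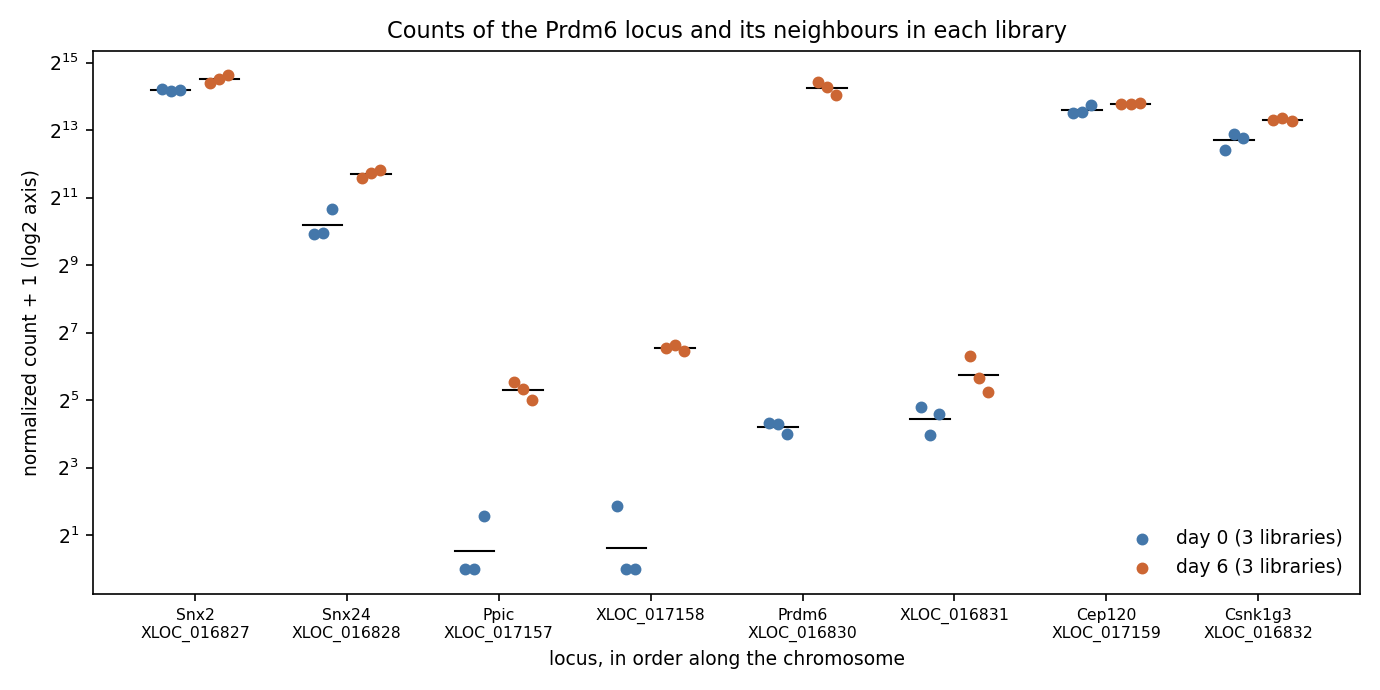
Normalized counts plus 1 of the 8 loci in each library, on a log2 axis, with points for libraries (day 0 blue, day 6 orange) and a bar for the mean on that scale. The Prdm6 locus goes from 15 to 19.2 at day 0 to 16916 to 21974 at day 6, while Snx2, Cep120 and Csnk1g3 were already abundant at day 0.

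The neighbours did not share a rise of this size, but none of them fell. Of the 5 neighbours with at least 10 normalized counts in every day 0 library, 3 rose (Snx24, XLOC_016831 and Csnk1g3) and 2 did not pass the test (Snx2 and Cep120). Calls are from limma, with p-values adjusted over all tested loci by Benjamini-Hochberg and a threshold of 0.05. Over all 17145 tested loci 22.2% rose and 21.8% fell, 44% in all, on chromosome 18 24.1% rose, and among the 15928 loci that had this minimum at day 0, 20.4% rose. The median log2 change of the 5 was 0.61, against 0.02 over all tested loci. Without day 6 replicate 1, and without day 6 replicate 2, Snx24 alone of the 5 was called higher. Those 2 fits called 31% and 30% of all tested loci, against 44% with all libraries. No neighbour was called lower by limma, edgeR or DESeq2, and 0 had an unadjusted p under 0.05 in that direction; edgeR called 44% of all loci and DESeq2 48.3%. All day 6 libraries lay above all day 0 libraries for each of these 5 loci, as they did for 29.5% of all tested loci, while 27.7% had all day 6 libraries below, 57.3% in either direction. After quantile normalization the stages overlapped for Snx2 and Cep120. The other 2 neighbours, Ppic and XLOC_017158, reached the minimum only at day 6, so that they had to differ, and they are described on their own below.

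Snx24 was past the threshold in every alternative run. It lies upstream of Prdm6 on the same strand, from 53405316 to 53550572, and ends 63807 bp before the Prdm6 locus begins. It had 979, 998 and 1617 normalized counts in the day 0 libraries and 3061, 3420 and 3612 in the day 6 libraries. Day 0 replicate 3 was high within its group, yet all day 6 values exceeded it. The log2 change was 1.53 (SE 0.23, limma adjusted p = 0.00114), and it was 1.15 to 1.76 over the 17 alternatives.

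Csnk1g3, the farthest neighbour downstream, starts 259997 bp beyond the end of the Prdm6 locus, on the plus strand from 54021255 to 54123852. Its counts were 5507, 7629 and 6979 at day 0 and 10031, 10458 and 9951 at day 6. The groups did not overlap, and the day 0 libraries spread more widely than the day 6 libraries. The log2 change was 0.61 (SE 0.15, limma adjusted p = 0.0129), and the call was lost without day 6 replicate 1 (0.62, limma adjusted p = 0.0534) and without day 6 replicate 2 (0.59, limma adjusted p = 0.064).

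XLOC_016831 is an annotated noncoding locus downstream of Prdm6, with 3 exons from 53807805 to 53865072 on the plus strand. RefSeq lists the noncoding RNA Gm19466, of the same total length of 57268 bp, between Prdm6 and Cep120. It was a low locus, with 27, 14.5 and 22.9 normalized counts at day 0 and 79.1, 49.2 and 36.5 at day 6. The lowest day 6 value was above the highest day 0 value by less than the range of the day 0 libraries, from lowest to highest. The log2 change of 1.29 (SE 0.42, limma adjusted p = 0.0372) was no longer past the threshold without day 0 replicate 2 or 3 or without day 6 replicate 1 or 2, where it was 0.99 to 1.35 with limma adjusted p of 0.0675 to 0.162.

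Per kilobase of all exonic bases, Snx2 and Cep120 were the most abundant loci of the window at both stages, and their differences did not pass the test. Snx2, from 53335621 to 53380523 on the plus strand, had 19105, 18319 and 18834 normalized counts at day 0 and 21597, 23263 and 25240 at day 6. The log2 difference was 0.31 (SE 0.12, limma adjusted p = 0.0675). It was past the threshold without day 0 replicate 1 (limma adjusted p = 0.0479), without day 0 replicate 2 (0.0473) and with a weight per library (0.0134). Cep120, on the minus strand from 53841329 to 53905214, faces Prdm6 from downstream and overlaps the span of XLOC_016831 without sharing an exonic base. It had 11733, 12000 and 13736 at day 0 and 13967, 14079 and 14199 at day 6. Its log2 difference of 0.18 (SE 0.12, limma adjusted p = 0.284) became -0.012 with quantile normalization.

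**Figure D3:**
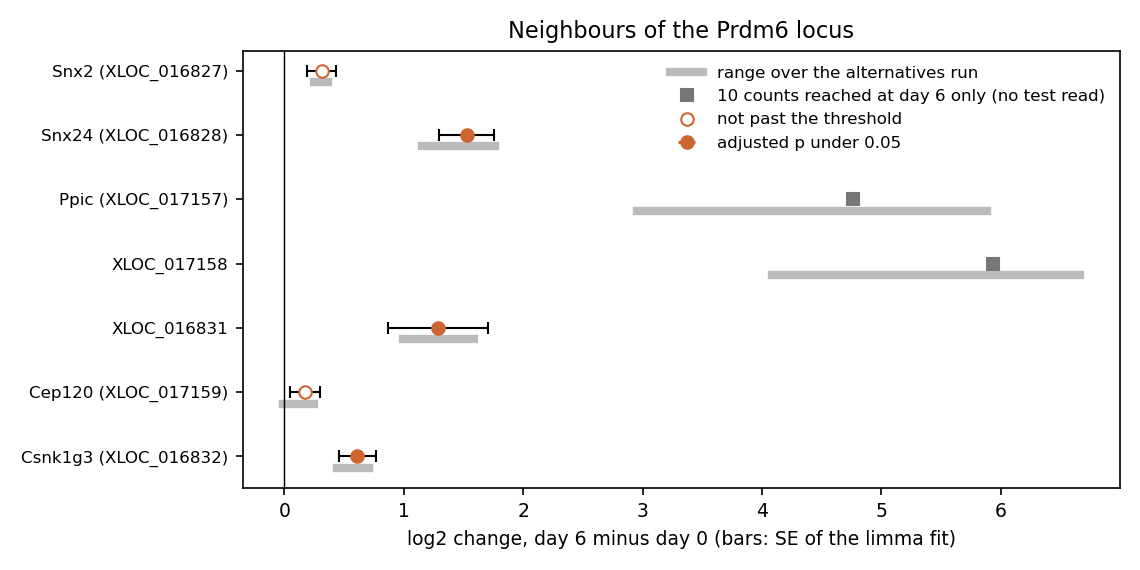
Log2 change of the 7 neighbours from day 0 to day 6 with the SE of the fit for the 5 with counts at both stages, and in pale grey the range over the alternatives run. Filled circles passed the threshold and open ones did not; the squares of Ppic and XLOC_017158 carry no test and depend on the pseudocount, and the range of Cep120 reaches below 0.

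XLOC_017158, the only unannotated locus of the window with counts, was, like Prdm6, near 0 at day 0 and present at day 6, and it overlaps Prdm6 head to head on the opposite strand. It is an intergenic locus of 2 exons, from 53611186 to 53618760 on the minus strand, with 1176 exonic bases. Its start lies 4380 bp inside the first exon of the Prdm6 locus and 5440 bp upstream of the annotated Prdm6 start. Its first exon of 442 bases is wholly contained in that Prdm6 exon, so that 37.6% of its exonic bases, but only 1.17% of those of Prdm6, are shared. RefSeq lists a noncoding RNA, Gm41726, between Ppic and Prdm6, and whether the locus is the same transcript was not tested.

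XLOC_017158 had 2.62, 0 and 0 normalized counts in the day 0 libraries, which is 3 reads in all, and 92.3, 98.4 and 87.7 at day 6, or 271 reads. The groups did not overlap and the day 6 libraries lay close together. The ratio of reads, scaled by size factors as for Prdm6, was 96.4, with a 95% interval of 32.6 to 470 for counting error only. The log2 difference was 5.93 with a pseudocount of 1, and it moved from 4.09 with a pseudocount of 5 to 6.66 with one of 0.5. No test is read from it, since the locus entered the fit only through its day 6 counts. At day 6 it reached 78.9 ± 4.58 normalized counts per kb, against 518 ± 67.2 for Prdm6 over all its exonic bases (SD, n = 3 each). The Prdm6 level would be 7388 per kb if all its reads fell in its annotated exons. Strand use in counting was not given in the sources used here, so Prdm6 reads in the shared exon cannot be told apart from its own.

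Ppic had low counts at both stages, and its annotated exons are wholly covered by another locus. XLOC_017157 spans 53565984 to 53580067 on the minus strand, upstream of Prdm6, and has 4 models. It had 0, 0 and 1.99 normalized counts at day 0 and 45.6, 39 and 31.3 at day 6, or 2 and 113 reads. The day 6 libraries were all above the day 0 libraries. The ratio of reads, scaled by size factors as for Prdm6, was 60.3, with a 95% interval of 16.3 to 504 for counting error only. The log2 difference was 4.77 with a pseudocount of 1, from 2.95 to 5.88 over the alternatives, and no test is read from it for the same reason.

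On the plus strand, XLOC_016829 has a first exon of 12466 bases that begins at the same base as the Ppic locus. It contains all 1286 annotated exonic bases of Ppic (100%) and 73% of the exonic bases of XLOC_017157. XLOC_016829 is not in the count table. The rule for reads in such shared bases was not given in the sources used here, so the level of Ppic is uncertain, and the part of this overlap in its rise was not tested.

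**Figure D4:**
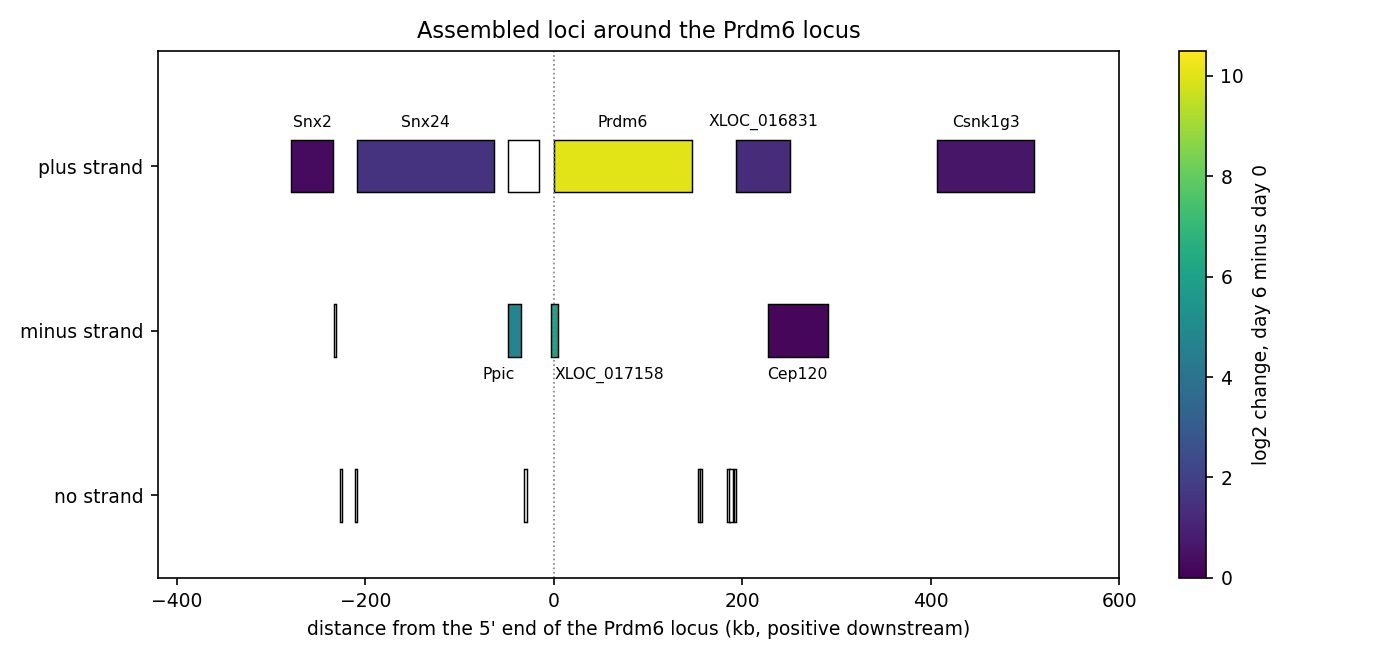
Loci of the deposited assembly around the Prdm6 locus by distance in kb from its start and by strand, coloured by log2 change, with loci that have no counts in white and narrow loci drawn at a minimum width. Of the 18 loci, 8 have counts. The largest changes are at Prdm6 itself, which was chosen for its rise, and at the 2 minus-strand loci nearest to its start. Those 2 loci, Ppic and XLOC_017158, reached the minimum count only at day 6, so they had to differ. Their log2 values depend on the pseudocount, and no pattern by position is read from these changes.

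The assembly holds 18 loci in the window, and the 10 without counts are all unannotated. They comprise 8 loci of 1 exon with no strand, the antisense locus XLOC_016829 and XLOC_017156, an intergenic locus of 2 exons on the minus strand. The nearest of them downstream, XLOC_017658, begins 6045 bp beyond the end of the Prdm6 locus. Of the 11 unannotated loci of the window, only XLOC_017158 has counts, so whether the others changed with Prdm6 was not analysed here.

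Ranked by normalized counts per kilobase of all exonic bases, Prdm6 moved from the seventh place of the 8 loci to the fifth. These places depend on the divisor, because 93% of the exonic bases of Prdm6 lie outside annotated exons. That share was 4.96% for Cep120, 26.8% for Snx24, 62.3% for Ppic, 68.1% for Csnk1g3 and 72.1% for Snx2. If all Prdm6 reads fell in its annotated exons, its day 6 level would be 7388 per kb. Snx24 and Csnk1g3 changed places, as did XLOC_017158 and XLOC_016831. At day 0 the order was Snx2, Cep120, Csnk1g3, Snx24, XLOC_016831, XLOC_017158, Prdm6 and Ppic, and the replicates of Snx2 and Cep120, of Csnk1g3 and Snx24, and of the last 3 loci overlapped. At day 6 Snx2 led with 3234 ± 252 per kb, followed by Cep120 (2708 ± 22.3), Snx24 (1309 ± 109), Csnk1g3 (737 ± 19.8) and Prdm6 (518 ± 67.2), each as mean ± SD over 3 libraries. XLOC_017158, XLOC_016831 and Ppic came last, and loci next to each other in this order did not overlap.

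At the borders of the window the nearest counted loci outside it were both unannotated, intergenic and on the minus strand. XLOC_017155, 6674 bp outside the low border, had 6.98 to 12.4 normalized counts at day 0 and 1.04 to 3.04 at day 6. XLOC_017160, 780122 bp beyond the high border, had 3.99 to 6.98 and 43.6 to 62.6. Just inside stand Snx2, 135621 bp from the low border, and Csnk1g3, 76148 bp from the high one.

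The loci whose 6 values were most like those of Prdm6 were, by that choice, also near silent at day 0 and abundant at day 6. Likeness was the Euclidean distance between the 6 log2 values, and the 5 nearest of all tested loci are given as a description. Bmp5, a bone morphogenetic protein (XLOC_036739), was nearest at a distance of 2.29, with 21 ± 11.4 normalized counts before differentiation and 9134 ± 300.4 after it (SD over 3 libraries). Hapln1, a link protein of the extracellular matrix (XLOC_008890), followed at 3.24 with 11.2 ± 1.93 and 5845 ± 1397. Cdh5, the cadherin of endothelial cells (XLOC_034767), stood at 3.34 with 30.6 ± 9.82 and 6041 ± 1252. XLOC_019371 on chromosome 2 and XLOC_013965 on chromosome 16, both annotated as coding and not paired with a symbol, were at 3.95 and 4.06.

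Other PRDM genes moved in both directions. Of 16 genes listed besides Prdm6, 15 were paired and tested, of which 4 rose, 3 fell and 8 did not pass the test. Their median log2 change was -0.06, beside 0.02 over all tested loci, of which 22.2% rose and 21.8% fell. The counts moved with the setting. Without day 6 replicate 1, and without day 6 replicate 2, 2 rose, while over all tested loci the rises went from 3799 to 2625 and 2547. Without day 0 replicate 2, and with a weight per library, 5 fell, while over all tested loci the falls went from 3744 to 4360 and 5542. At a minimum of 50 counts, with DESeq2 and without day 6 replicate 3, 2 fell, while 2890, 4361 and 2940 fell over all tested loci. All values of the list are on the log2 scale of the fit unless given as normalized counts.

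The rises were in Zfpm1, Mecom, Prdm8 and Prdm11. Zfpm1, which encodes a cofactor of GATA factors, rose from 1218 ± 315 normalized counts to 9365 ± 1049 (mean ± SD over 3 libraries, here and below). Its log2 change was 2.97 (SE 0.21, limma adjusted p = 3.59e-05). Mecom, also known as Evi1 and active in blood and vascular cells, went from 742 ± 418 to 4491 ± 554 (2.73, SE 0.36, limma adjusted p = 0.000591). Prdm11 rose by 0.92 on the log2 scale (limma adjusted p = 0.0119) and Prdm8, a low locus at 30.4 ± 12.2 and 72.4 ± 16.6, by 1.27 (limma adjusted p = 0.0278). Prdm11 was not called without day 6 replicate 1 or 2, and Prdm8 without day 0 replicate 3 or any one day 6 library.

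The falls were in Prdm14, Prdm16 and Prdm12. Prdm14, a regulator of pluripotency and of germ cells, went from 3808 ± 1157 to 1216 ± 92.3 (log2 change -1.60, SE 0.24, limma adjusted p = 0.00103). Prdm16, known from brown fat and neural stem cells, went from 1240 ± 309 to 475 ± 89.9 (-1.37, SE 0.26, limma adjusted p = 0.00327). Prdm12, a gene of sensory neurons, was at 94.2 ± 134 at day 0, a spread wider than its mean, and at 1.69 ± 2.11 at day 6 (limma adjusted p = 0.0131, and 0.0506 without day 6 replicate 3).

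Smooth muscle genes were also split in direction. Of 15 listed, 13 were paired and tested: 5 rose, 4 fell and 4 did not pass the test, with a median log2 change of 0.14, beside 22.2% higher, 21.8% lower and a median of 0.02 over all tested loci. Gata6, a transcription factor of endoderm, heart and smooth muscle, rose from 319 ± 114 to 12396 ± 1291 normalized counts (log2 change 5.33, SE 0.25, limma adjusted p = 7.69e-06). Myocd, the coactivator that drives smooth and cardiac muscle genes, rose from 61.4 ± 30.8 to 452 ± 95.8 (2.95, SE 0.38, limma adjusted p = 0.000539).

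Acta2, the smooth muscle actin, rose from 10352 ± 6706 to 46816 ± 8290 (2.36, SE 0.40, limma adjusted p = 0.00192). Cald1, an actin-binding protein, rose by 0.92 (limma adjusted p = 0.00322). Mrtfb, a cofactor of serum response factor, rose by 0.60 (limma adjusted p = 0.0131), a call lost without any one day 6 library. The contractile genes Cnn1, Myh11 and Lmod1 fell by 1.54, 1.56 and 1.69 on the log2 scale (limma adjusted p of 0.00402, 0.00439 and 0.00492). Klf4, a factor of ES cells that also represses smooth muscle genes, fell from 38018 ± 11428 to 4955 ± 1254 (-2.92, SE 0.27, limma adjusted p = 0.000102).

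**Figure D5:**
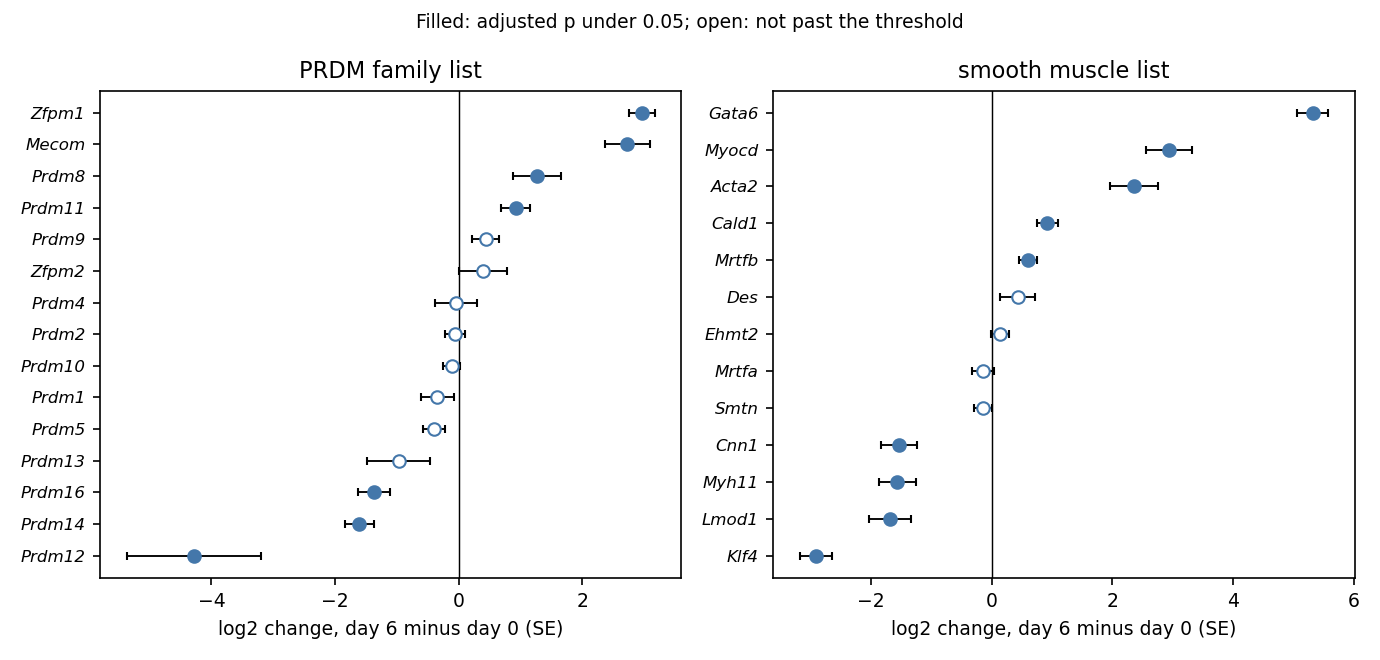
Log2 change from day 0 to day 6 with the SE of the fit for the 15 PRDM genes and 13 smooth muscle genes that were paired with a locus and tested. Filled points passed the threshold (4 higher and 3 lower PRDM genes, 5 higher and 4 lower smooth muscle genes); open points did not.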

How the data were processed

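RNA was poly(A)-selected and sequenced from 6 libraries, 3 at day 0 and 3 at day 6, called biological replicates in the series' design text. Per assembled locus, the deposited table gives a signal, here called a normalized count. The authors' values equal counts divided by 1 size factor per library, as read from the values: 100% are whole multiples of 1 step per library within 0.01 reads. DESeq, HTSeq 0.5.4p3, Cufflinks 2.1.1, TopHat2 2.0.8 and mm9 are named, without roles, per the submitters' processing notes. Strand use in counting was not given in the sources used here. A merged assembly with mm9 exon positions is the other deposited file.

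The 17145 loci that reached 10 normalized counts in 3 or more libraries were tested two-sided with limma 3.58.1 (trend, robust) on log2(normalized count + 1), which understates changes of low loci, and adjusted by Benjamini-Hochberg over all, threshold 0.05. Alternatives used other pseudocounts, filters and scalings, weights per library, a replicate block, edgeR 4.0.16 and DESeq2 1.42.0 on the recovered reads, and left out each library. Steps were tested on simulated counts in which only well-covered loci changed, so that test does not cover low loci.

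Symbols came from GENCODE M21 by identical exon and intron lengths over at least 2 introns, 1 gene to 1 locus. This pairing rule was set after the files had been seen; 4528 loci matched no gene and 1336 several. The members and lists were chosen with earlier results of these data known. Named are all loci of the window, the 5 with the nearest log2 profile, and list genes past the threshold. Columns left unused numbered 0.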

Additional observations from a re-analysis of the deposited data

How the results depend on the processing

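The count of changed loci over the whole table ran from 5143 to 11298 around 7543, lowest without day 6 replicate 2 and highest with a weight per library, and edgeR gave 7546 and DESeq2 8278. Of the 5 neighbours with counts at day 0, 3 were called higher, and 1 to 4 with 1 library left out, a count chosen after seeing the data. Counting also Ppic and XLOC_017158, which passed the filter only through their day 6 counts, it was 5. This count was 3 at a minimum of 50 counts, which removed XLOC_016831 and Ppic, and 3 to 6 with 1 library left out. None was called lower under the 17 alternatives. With those 2 loci included, neighbours whose stages did not overlap numbered 7, and 5 at a minimum of 50 or with quantile normalization. The log2 change of the Prdm6 locus was 9.76 with a pseudocount of 5 and 9.93 to 10.24 under the others. Cep120 turned to -0.012 with quantile normalization; the cause was not tested.

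Same-numbered libraries of the stages deviated together with correlations of 0.176, 0.134 and 0.0741 for numbers 1, 2 and 3, and each correlated best with its own number, but not all reached 0.1, so the numbers were not taken as pairs. With a replicate block 7852 loci were called, with 3 of the 5 neighbours higher and 0 lower, and the Prdm6 change was 10.04. At 2 to 3 reads over day 0, the folds of Ppic and XLOC_017158 are limited by depth.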
